A study of Mus musculus with 18 samples.

Results

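The glucocorticoid-induced genes Sgk1, Fkbp5, Tsc22d3, Klf9, Ddit4 and Zbtb16 and the genes of both corticosteroid receptors (Nr3c1 and Nr3c2) were followed in hypothalamus RNA of lean and diet-induced obese (DIO) mice. They are 8 of the 56980 features in the count table. Each symbol was taken as its feature with the largest total count, and all 8 were among the 11835 genes with enough counts to be tested. The set was chosen by measured values of these same libraries, the difference of Sgk1 between obese vehicle mice and lean mice, together with known targets and receptors. Differences from lean mice are therefore given below as descriptions, without a p-value, and the comparison of TN-783 with vehicle is given with its test.

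The study compared 3 groups of 6 male C57BL/6JGpt mice, 7 months old in the deposited sample table. The obese mice were put on a high-fat diet at 6 weeks of age and stayed on it for 16 weeks or more. They then received either TN-783 at 50 mg/kg, which blocks the inflammasome protein NLRP3, or its vehicle, by 2 oral gavages a day for 29 days (28 days in the deposited sample table), after 14 days of vehicle gavage. Lean mice ate chow and were not dosed, and whether they shared the 14 days of gavage is not stated, so diet and handling differ together between obese and lean mice. The labels call the 18 samples independent, so the spread is that between animals. In bulk tissue, fewer cells of a type and less RNA per cell cannot be told apart.

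Glucocorticoids are steroid hormones of the adrenal cortex, released under control of the hypothalamus and the pituitary and subject to negative feedback on both. They enter cells and bind the glucocorticoid receptor, encoded by Nr3c1, or with higher affinity the mineralocorticoid receptor, encoded by Nr3c2. The bound receptor leaves its HSP90 chaperone complex, enters the nucleus and binds DNA at glucocorticoid response elements, inverted repeats of a short half-site. Among the genes it induces in brain are Sgk1, whose kinase acts on ion channels, transporters and FOXO transcription factors, and Fkbp5, whose product lowers the hormone affinity of the receptor.

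Library totals were 1993528 to 3589795 counts in TN-783 mice, 1699712 to 2761474 in vehicle mice and 2070041 to 3695785 in lean mice. RNA integrity numbers were 9.6 to 9.7 in TN-783, 9.5 to 9.9 in vehicle and 9.4 to 10.0 in lean samples. All 8 hypothalamic markers fixed for a check of the tissue (Pmch, Hcrt, Agrp, Oxt, Avp, Trh, Otp and Nkx2-1) were detected in each group. Markers of anterior pituitary (Prl, Gh, Cga, Tshb, Lhb and Fshb, 6 of 6 detected in each group) summed to 3899 CPM (counts scaled to a common library size) in vehicle replicate 2 and 3482 CPM in vehicle replicate 4, against 3.66 to 97.3 CPM in the other 16 libraries. Differences of members that move by more than 1.5 times or change sign without these 2 libraries are given with and without them.

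Sgk1 is transcribed from several start sites. Of its 6 RefSeq promoter windows (250 bases before to 50 after a start), 1 holds the full palindromic response element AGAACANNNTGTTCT, and the window is shown here because Sgk1 had the largest difference of the 8 genes from lean mice. It lies at chr10:21993640-21993939 (GRCm38.p6, plus strand), with the element in capitals at bases 62 to 76 of the window:
Sgk1: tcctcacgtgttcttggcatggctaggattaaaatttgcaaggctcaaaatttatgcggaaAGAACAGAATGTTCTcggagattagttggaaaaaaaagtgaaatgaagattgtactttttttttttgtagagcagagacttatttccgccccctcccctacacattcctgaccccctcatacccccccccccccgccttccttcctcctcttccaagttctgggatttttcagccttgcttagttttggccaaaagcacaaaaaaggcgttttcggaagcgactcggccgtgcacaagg
This window holds 3 half-sites, of which 2 make up the element. Both strands of 32851 RefSeq windows were searched, and 3 of them, or 0.00913%, held these letters. The other two belong to Acnat2 and the gene model Gm35041. Windows of 6 of the 8 genes are described here, 13 windows in all, and the full element was found in none of the 12 others. No window was at hand for Zbtb16, and Nr3c1 was left out of this count. The half-site TGTTCT, which is part of the full element and was also sought on both strands, occurs in 19.0% of all windows and in 4 of the 13. It was found in 3 windows of Sgk1 and in 1 of the 3 of Tsc22d3, at chrX:140600473-140600772 (minus strand), in capitals at bases 66 to 71:
Tsc22d3: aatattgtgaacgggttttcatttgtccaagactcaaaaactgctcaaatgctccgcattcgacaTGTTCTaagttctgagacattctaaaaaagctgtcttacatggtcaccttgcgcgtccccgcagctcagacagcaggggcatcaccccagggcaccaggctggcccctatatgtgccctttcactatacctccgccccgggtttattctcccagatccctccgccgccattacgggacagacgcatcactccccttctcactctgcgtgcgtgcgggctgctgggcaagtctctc
The single windows of Fkbp5, Klf9, Ddit4 and Nr3c2 did not hold these letters. A match describes the letters of a window only, and the 3' end counts do not tell which start of Sgk1 was used.

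Sgk1 (ENSMUSG00000019970) was the member that separated obese from lean mice. It lay between 46.2 and 92.3 CPM with a median of 65.7 in TN-783 mice, between 72.6 and 113.0 with a median of 84.0 in vehicle mice, and between 11.5 and 42.0 with a median of 23.7 in lean mice. Every obese library, treated or not, was therefore above every lean library, while TN-783 and vehicle libraries overlapped. The underlying counts were 94.0 to 272, 120 to 244 and 30 to 97.0 per library. Vehicle exceeded lean mice by a log2 difference of 1.75 (SE 0.26), about 3.37-fold, and TN-783 exceeded lean mice by 1.41 (SE 0.27), or 2.65-fold. These 2 comparisons share the lean libraries. Sgk1 was chosen for its difference between vehicle and lean mice, so nothing is read from its standing there, where 0.00845% of all tested genes were called by edgeR and 0.161% had every vehicle library above every lean one, with Sgk1 as 1 of the 8 in both. The count of called genes, 1 with all libraries, was between 0 and 346 on leaving out any single library, as itemised under the dependence on processing, while the Sgk1 difference stayed between 1.60 and 1.95. In TN-783 versus lean 0% of genes were called, and 0.22% of genes, Sgk1 among the 8, showed no overlap in that direction.

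**Figure D1:**
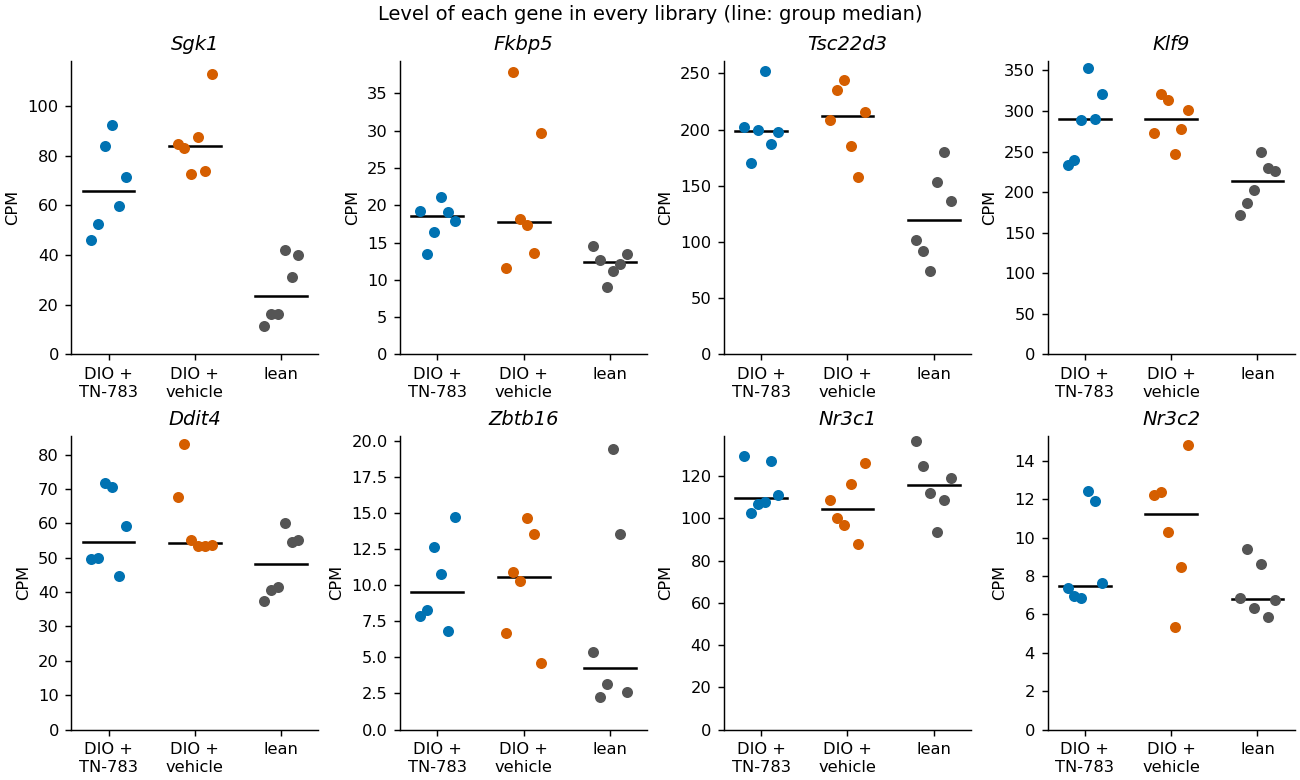
CPM of each of the 8 genes (vertical axes, from 0) in the 18 libraries, as points, with TN-783 on the left, vehicle in the middle and lean on the right. Horizontal lines are group medians. The lean points of Sgk1, 11.5 to 42.0 CPM, lie below all 12 obese points.

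Lean mice were not uniform. Sgk1 stood at 42.0, 31.2 and 40.1 CPM in lean replicates 4, 5 and 6 and at 11.5, 16.1 and 16.2 CPM in lean replicates 1, 2 and 3. The SD of its log2 CPM was 0.38 in TN-783, 0.23 in vehicle and 0.76 in lean libraries. Klf9, Ddit4 and Tsc22d3 were also higher in each of lean replicates 4, 5 and 6 than in each of lean replicates 1, 2 and 3. RNA integrity was 9.7, 9.6 and 10.0 in the same replicates 4, 5 and 6, against 9.5, 9.4 and 9.4 in replicates 1, 2 and 3. With RNA integrity as a covariate Sgk1 differed by 1.60 (SE 0.23) between vehicle and lean mice and by 1.38 (SE 0.22) between TN-783 and lean mice.

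Fkbp5, the receptor's feedback co-chaperone, ranged from 13.5 to 21.0 CPM (median 18.5) in TN-783, from 11.6 to 37.9 (median 17.8) in vehicle and from 9.08 to 14.5 (median 12.4) in lean libraries. The 2 highest values, 37.9 and 29.6 CPM, were those of vehicle replicates 2 and 6, and the other vehicle libraries lay within the span of TN-783 and lean values together. The log2 difference was 0.84 (SE 0.23) for vehicle versus lean and 0.54 (SE 0.23) for TN-783 versus lean. Vehicle replicate 2 was one of the libraries with pituitary transcripts, and without it the vehicle-versus-lean difference was 0.57 (SE 0.20). Without both such libraries it was 0.59 (SE 0.22). Vehicle replicate 4, the other such library, had 17.4 CPM of Fkbp5. In vehicle replicate 6 the pituitary markers summed to 7.87 CPM. The part of the pituitary transcripts in the high value of replicate 2 was not tested.

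Tsc22d3 encodes the leucine zipper protein GILZ, known for blocking NF-kB and AP-1. It ranged from 171 to 252 CPM (median 199) in TN-783, from 157 to 244 (median 212) in vehicle and from 73.8 to 180 (median 119) in lean libraries. All 6 libraries of either obese group were above the lean median, but the ranges overlapped through lean replicate 5. Its log2 differences from lean mice were 0.76 (SE 0.17) for vehicle and 0.72 (SE 0.17) for TN-783.

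Klf9, a zinc finger transcription factor gene that also answers to thyroid hormone, showed the same order at a smaller size. It ranged from 233 to 352 CPM (median 289) in TN-783, from 248 to 321 (median 289) in vehicle and from 172 to 250 (median 214) in lean libraries. Again 6 of 6 libraries of each obese group exceeded the lean median. The log2 differences were 0.46 (SE 0.11) for vehicle versus lean and 0.45 (SE 0.11) for TN-783 versus lean.

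Ddit4 (REDD1), an inhibitor of the growth kinase complex mTORC1, had obese and lean ranges that overlapped. It ranged from 44.6 to 71.7 CPM (median 54.6) in TN-783, from 53.4 to 83.1 (median 54.4) in vehicle and from 37.5 to 60.1 (median 48.0) in lean libraries. All 6 vehicle libraries and 5 of 6 TN-783 libraries were above the lean median. The log2 difference was 0.35 (SE 0.15) for vehicle versus lean and 0.26 (SE 0.15) for TN-783 versus lean. Vehicle replicate 2 held the highest value here too, and without it the difference of vehicle from lean was 0.24 (SE 0.15).

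Zbtb16, which encodes the zinc finger factor PLZF, was the least settled of the 6. Its counts were as low as 5 in a library. It ranged from 6.80 to 14.7 CPM (median 9.53) in TN-783, from 4.63 to 14.7 (median 10.6) in vehicle and from 2.23 to 19.5 (median 4.25) in lean libraries. Both the lowest and the highest of all 18 values were thus from lean mice. The log2 difference was 0.47 (SE 0.45) for vehicle versus lean and 0.48 (SE 0.44) for TN-783 versus lean. Leaving out 1 library gave 0.21 (without lean replicate 2) to 0.99 (without lean replicate 4) for vehicle versus lean, and 0.22 to 1.00 without the same 2 lean libraries for TN-783 versus lean. Leaving out lean replicate 3 gave 0.31 in both, and leaving out lean replicate 5 gave 0.70 and 0.71. TN-783 versus lean was 0.30 without TN-783 replicate 6. Without vehicle replicates 2 and 4 the difference of vehicle from lean was 0.26 (SE 0.54).

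Across the 6 induced genes, the number that lay above their own median over 18 libraries was 2, 0, 6, 6, 3 and 6 in TN-783 replicates 1 to 6, and 4, 6, 6, 3, 3 and 4 in vehicle replicates 1 to 6. It was 0, 0, 0, 2, 2 and 1 in lean replicates 1 to 6. Within the treated group the libraries thus differed, as replicate 2 had none above and replicates 3, 4 and 6 had all. The medians span obese and lean libraries, and the set was chosen on that difference, so nothing is read from the low lean numbers. The same count was not made over all genes.

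**Figure D2:**
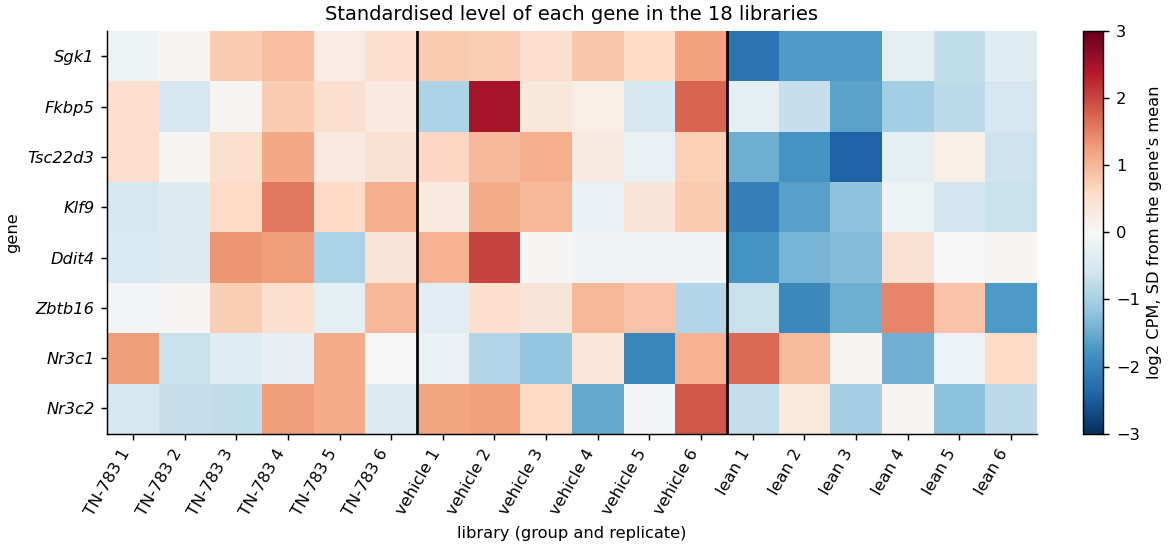
Standardised log2 CPM of the 8 genes (rows) in 18 libraries (columns, TN-783, vehicle and lean from left to right), in SD from each gene's mean, red above and blue below. Lean replicates 1 to 3 are blue for all 6 induced genes, none of which was above its median there.

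The receptor genes are described the same way. Nr3c1 ranged from 103 to 129 CPM (median 110) in TN-783, from 87.8 to 126 (median 104) in vehicle and from 93.5 to 136 (median 116) in lean libraries, so all groups overlapped. Its log2 difference was -0.13 (SE 0.11; 95% interval -0.35 to 0.087) for vehicle versus lean and -0.022 (SE 0.10; -0.24 to 0.19) for TN-783 versus lean. Nr3c2 ranged from 6.86 to 12.4 CPM (median 7.50) in TN-783, from 5.34 to 14.8 (median 11.2) in vehicle and from 5.87 to 9.43 (median 6.82) in lean libraries. The highest Nr3c2 value was that of vehicle replicate 6, which also had the highest Sgk1, and the lowest that of vehicle replicate 4. For Nr3c2 the log2 difference was 0.50 (SE 0.23; 95% interval 0.032 to 0.97) for vehicle versus lean and 0.24 (SE 0.23; -0.24 to 0.72) for TN-783 versus lean. Of its libraries 6 of 6 TN-783 and 5 of 6 vehicle were above the lean median. The intervals of both receptor genes against lean mice are descriptions and not tests, as the members were chosen with that contrast known. Without TN-783 replicate 4 or 5 the Nr3c2 difference of TN-783 from lean was 0.13.

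TN-783 was set against vehicle to ask what the drug changed in obese mice, and here the genes were tested. None of the 8 genes passed, and 0% of all 11835 genes were called (quasi-likelihood test of edgeR, adjusted p = 1.00 for each of the 8). DESeq2 called 0 genes as well. At an unadjusted p under 0.05 the edgeR fit over all 3 groups found 1.02% of genes higher and 1.59% lower, none of the 8 among them. Sgk1 averaged 67.7 ± 18.0 CPM in TN-783 mice and 85.8 ± 14.6 CPM in vehicle mice (SD, n = 6 each), a log2 difference of -0.35 (SE 0.24) with a 95% interval of -0.86 to 0.17. With the 2 groups alone the difference was -0.34 with a smaller SE of 0.15, and Sgk1 was not called there either. The SE, and so the width of the interval, thus depended on whether lean libraries were in the fit. The SD of Sgk1 log2 CPM was 0.76 in lean, 0.38 in TN-783 and 0.23 in vehicle libraries. The printed interval and the unadjusted result are from the fit over all 3 groups. Neither is given here for the 2 groups alone, where the difference was larger against its SE. Of the 6 treated libraries 5 were below the vehicle median. The vehicle libraries had a part in the choice of Sgk1, so this comparison is not wholly independent of it.

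The other members lay closer to 0 or had wider intervals. Fkbp5 averaged 17.8 ± 2.64 CPM in TN-783 and 21.4 ± 10.2 CPM in vehicle mice (SD, n = 6 each), a difference of -0.29 (95% interval -0.74 to 0.16) that was -0.031 without vehicle replicate 2 and -0.046 without both vehicle libraries holding pituitary transcripts. Tsc22d3 differed by -0.042 (95% interval -0.38 to 0.30) and Klf9 by -0.0081 (-0.24 to 0.22), so for Klf9 a change of more than 0.24 in either direction is outside the interval. Ddit4 differed by -0.092 (-0.39 to 0.21). Without vehicle replicates 2 and 4 Klf9 differed by -0.018 (SE 0.12), Ddit4 by 0.0055 (SE 0.16) and Nr3c2 by -0.38 (SE 0.23). Zbtb16 differed by 0.0092, with an interval of -0.89 to 0.91, and by 0.22 (SE 0.53) without vehicle replicates 2 and 4. Its SE was 0.43 with the lean libraries in the fit and 0.26 with the 2 groups alone. Nr3c1 differed by 0.11 (-0.11 to 0.33), and leaving out 1 library gave 0.058 (without vehicle replicate 5) to 0.16 (without vehicle replicate 6). Nr3c2 differed by -0.26 (-0.73 to 0.20), and leaving out 1 library gave -0.40 (without vehicle replicate 4) to -0.14 (without vehicle replicate 6).

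**Figure D3:**
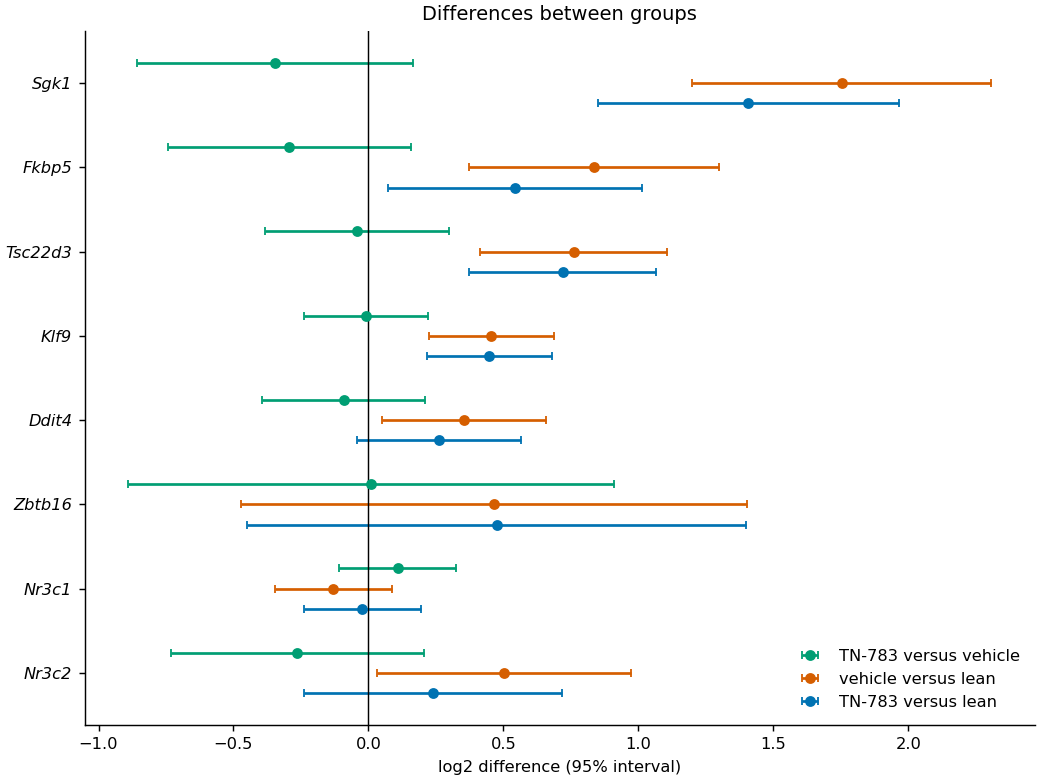
Log2 difference of each gene with its 95% interval (horizontal axis) for TN-783 versus vehicle, vehicle versus lean and TN-783 versus lean. All intervals are from the fit over all 3 groups. For TN-783 versus vehicle each interval spans 0, while Sgk1 sits at 1.75 and 1.41 in the 2 comparisons with lean mice. Intervals against lean mice are descriptions and not tests, as the members were chosen with that difference known.

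Whether the genes vary together between animals of the same group is a question the choice of members did not use. Each library's deviation from its group mean in log2 CPM was compared between Sgk1 and the 7 others over 18 libraries, with 100000 permutations within groups. Sgk1 and Klf9 deviated together, with r = 0.751 (permutation p = 0.00121, or 0.00847 after adjustment over 7 relations) and rho = 0.711 (permutation p = 0.00385, or 0.0169 after adjustment), and r was 0.648 without lean replicates 1 and 4, the farthest in Sgk1. Ddit4 did so as well, with r = 0.715 (permutation p = 0.00335, or 0.0117 after adjustment) and rho = 0.763 (permutation p = 0.00482, or 0.0169 after adjustment), and r = 0.627 without the same 2. For Tsc22d3 r was 0.681 (permutation p = 0.0359, 0.0839 adjusted) and rho 0.717 (permutation p = 0.0156, 0.0365 adjusted), with r = 0.668 without the 2, so only the rank measure passed for that gene. Only these 7 relations were examined. How common such an r with Sgk1 is among all tested genes is not known, so the relations are not shown to be particular to these genes.

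The groups did not contribute equally. Within TN-783, vehicle and lean libraries the Klf9 relation had r = 0.889, -0.0364 and 0.952, that of Ddit4 0.870, -0.0890 and 0.988, and that of Tsc22d3 0.657, 0.132 and 0.781. In vehicle mice Sgk1 had its smallest spread and r near 0 with Klf9 and Ddit4, and whether the groups differ in this was not tested. In lean mice replicates 1 to 3 lay below replicates 4 to 6 in all 4 genes, and the relation within either set of 3 was not tested. Fkbp5 (r = 0.133 with permutation p = 0.457, or 0.457 after adjustment, and rho = 0.154 with permutation p = 0.512, or 0.591 after adjustment) and Nr3c2 (r = 0.156 with permutation p = 0.448, or 0.457 after adjustment, and rho = 0.125 with permutation p = 0.591, or 0.591 after adjustment) did not pass. Zbtb16 (r = 0.364 with permutation p = 0.323, or 0.452 after adjustment, and rho = 0.360 with permutation p = 0.250, or 0.437 after adjustment) and Nr3c1 (r = -0.354 with permutation p = 0.199, or 0.348 after adjustment, and rho = -0.224 with permutation p = 0.405, or 0.567 after adjustment) did not pass either. Without lean replicates 1 and 4, r was 0.317 for Fkbp5, 0.0892 for Nr3c2, 0.199 for Zbtb16 and 0.0233 for Nr3c1. In TN-783, vehicle and lean libraries r was 0.309, 0.450 and -0.0477 for Fkbp5, 0.354, 0.377 and -0.00722 for Nr3c2, 0.686, -0.718 and 0.484 for Zbtb16, and -0.524, 0.903 and -0.734 for Nr3c1.

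**Figure D4:**
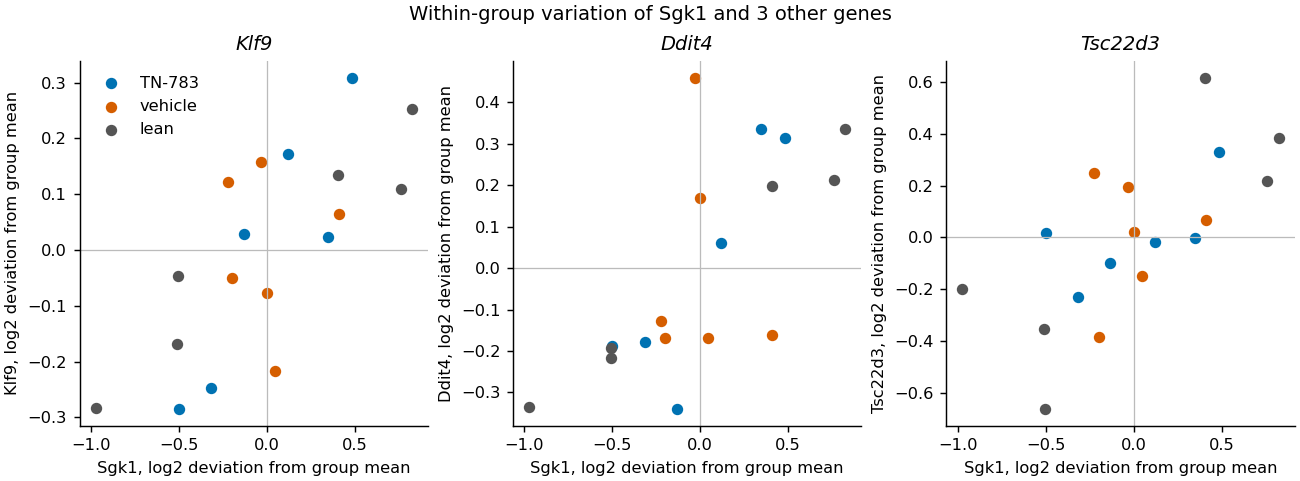
Deviation of Sgk1 from its group mean (horizontal, log2) against that of Klf9, Ddit4 and Tsc22d3 (vertical, log2), 1 point per library. For Klf9 r was 0.889 in TN-783, 0.952 in lean and -0.0364 in vehicle points, and whether the groups differ in this was not tested.

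RNA integrity was related to the members in the same way, a choice made after seeing the data. Sgk1 had r = 0.593 with it (permutation p = 0.0404, 0.209 adjusted over 8 relations; rho = 0.550, permutation p = 0.0441, 0.124 adjusted), 0.557 without vehicle replicate 4 and lean replicate 6, and -0.318, 0.417 and 0.793 within TN-783, vehicle and lean libraries. Tsc22d3 had r = 0.594 (permutation p = 0.0521, 0.209 adjusted) and rho = 0.735 (permutation p = 0.00467, 0.0374 adjusted), 0.670 without the same 2, and 0.230, 0.631 and 0.629 within the groups. For the other 6 genes r lay between -0.141 and 0.392, with permutation p of at least 0.114 and adjusted p of at least 0.285, and rho between -0.139 and 0.494, with adjusted permutation p of at least 0.124. The rho of 0.494 was that of Ddit4 (permutation p = 0.0466, 0.124 adjusted). Within TN-783, vehicle and lean libraries r was -0.353, 0.634 and 0.609 for Klf9 and -0.0692, 0.118 and 0.731 for Ddit4. In the same order it was -0.365, -0.902 and 0.124 for Zbtb16 and 0.0169, 0.907 and -0.143 for Nr3c2. For Fkbp5 it was -0.0282, 0.252 and 0.359, and for Nr3c1 -0.0926, 0.303 and -0.234. The part of RNA integrity in the joint deviations was not tested.

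Among the 5 genes whose standardised profile over 18 libraries was most like that of Sgk1 were Trib1, Plekhf1, Tsc22d3 and Klf9. Likeness was the mean absolute difference of standardised log2 CPM, which was 0.33 SD for Trib1, 0.35 for Plekhf1 and 0.38 each for Tsc22d3 and Klf9, against a median of 1.11 over all other tested genes. Trib1, a pseudokinase gene, averaged 27.2 ± 6.62, 31.1 ± 4.69 and 17.9 ± 3.80 CPM in TN-783, vehicle and lean mice (SD, n = 6 each). Plekhf1 averaged 5.25 ± 1.21, 6.74 ± 1.35 and 2.54 ± 1.15 CPM in these groups. Tsc22d3 and Klf9 were thus among the 5 nearest of 11834 genes, while Ddit4 was at rank 67, Fkbp5 at 206, Zbtb16 at 210, Nr3c2 at 936 and Nr3c1 at 10555. Group means were not removed here, so the profile holds the difference between obese and lean mice on which the set was chosen. The ranks of the members are therefore a description only.

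Of 25 other genes known as glucocorticoid targets, 20 were tested, and 17 of the 20 were higher and 3 lower in vehicle than in lean mice. None of them passed singly (edgeR, 0 called). At an unadjusted p under 0.05, 10 of the 20 were higher and 0 lower, where 5.32% of all tested genes were higher and 5.55% lower. Their median log2 difference was 0.33, against 0.0072 over all tested genes. The list was fixed with earlier results of these data known and is no independent evidence of direction. Nfkbia, which encodes the NF-kB inhibitor, averaged 155 ± 33.8 CPM in TN-783, 178 ± 32.7 in vehicle and 114 ± 29.2 in lean mice (SD, n = 6 each), a vehicle-versus-lean difference of 0.65 (SE 0.16, edgeR adjusted p = 0.207). Klf15, a transcription factor gene tied to amino acid catabolism, averaged 36.9 ± 8.90, 36.6 ± 7.73 and 24.3 ± 5.59 CPM in TN-783, vehicle and lean mice, with a vehicle-versus-lean difference of 0.61 (SE 0.17, edgeR adjusted p = 0.255).

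In TN-783 versus lean 18 of the 20 were higher and 2 lower, with 3 higher and 0 lower at an unadjusted p under 0.05 (3.81% and 4.35% of all genes) and a median of 0.28. In TN-783 versus vehicle 8 were higher and 12 lower, with 0 at an unadjusted p under 0.05 and a median of -0.052. The smallest p there belonged to Errfi1, a gene for an inhibitor of EGF receptor signalling, at -0.29 (SE 0.17), followed by Nfkbia at -0.20 (SE 0.16), each with an edgeR adjusted p of 1.00. Hif3a, Pdk4, Arrdc2, Lcn2 and Angptl4 had too few counts to be tested.

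**Figure D5:**
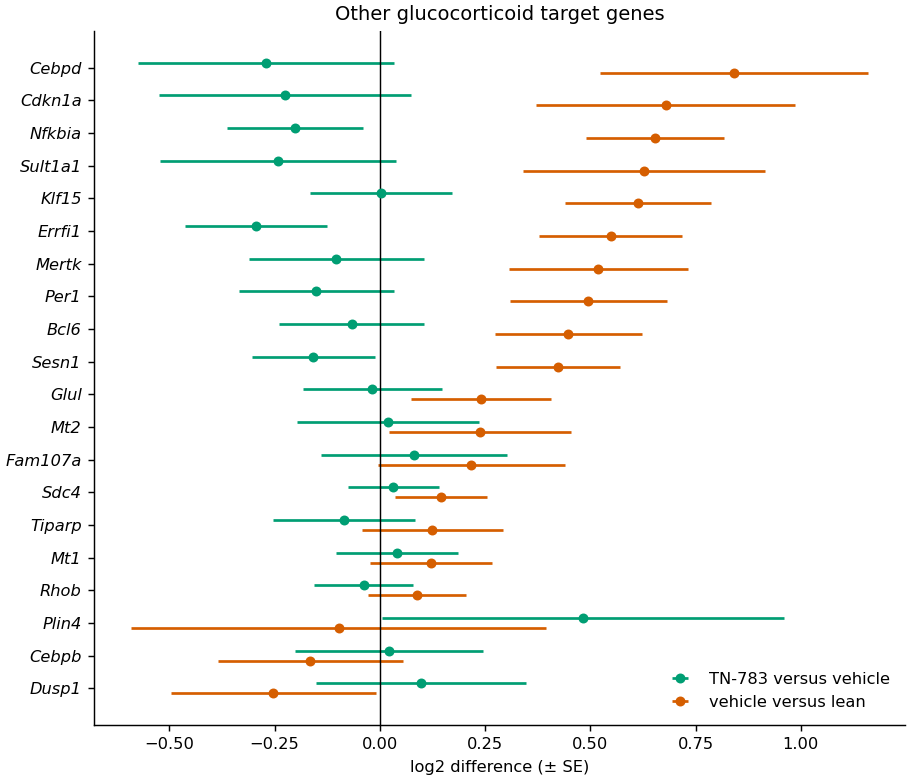
Log2 difference with its SE (horizontal axis) for the 20 tested genes of the list of other glucocorticoid targets, for TN-783 versus vehicle and vehicle versus lean. In vehicle versus lean 17 of 20 points lie right of 0, and in TN-783 versus vehicle 8 of 20 do.

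The machinery around the receptor was measured with 14 chaperone and coregulator genes, all tested. This list and those from steroid access to the TSC22 and KLF families were also fixed with earlier results of these data known. None is independent evidence of direction. In vehicle versus lean 5 of the 14 genes were higher and 9 lower. Of these 0 were called and 4 were lower at an unadjusted p under 0.05 (5.55% of all genes), with a median of -0.091. Hsp90aa1, a gene for the HSP90 that holds the receptor ready for hormone, averaged 1953 ± 282 CPM in TN-783, 1881 ± 178 in vehicle and 2365 ± 281 in lean mice (SD, n = 6 each), a vehicle-versus-lean difference of -0.33 (SE 0.12, edgeR adjusted p = 0.345). Stip1, whose product links HSP70 to HSP90, differed by -0.32 (SE 0.13, edgeR adjusted p = 0.385). In TN-783 versus vehicle 9 were higher and 5 lower, 0 called and 0 at an unadjusted p under 0.05, with Ncoa1, a coactivator gene, at -0.14 (SE 0.11) and Fkbp4, which encodes the co-chaperone that competes with FKBP5, at 0.14 (SE 0.11).

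Of 6 genes for access of steroids to the receptor only 2 were tested. Hsd11b1, the enzyme that regenerates active glucocorticoid inside cells, averaged 16.1 ± 4.35 CPM in TN-783, 14.2 ± 4.92 in vehicle and 8.66 ± 3.42 in lean mice (SD, n = 6 each). TN-783 and vehicle mice differed by 0.17 on the log2 scale (SE 0.23, edgeR adjusted p = 1.00). Vehicle exceeded lean mice by 0.74 (SE 0.25, edgeR adjusted p = 0.318) and TN-783 exceeded them by 0.91 (SE 0.24, edgeR adjusted p = 0.421), neither of which passed. Abcb1a, a gene for an efflux pump of the blood-brain barrier that exports some steroids, was 0.39 higher in vehicle than lean mice (SE 0.19, edgeR adjusted p = 0.459). It differed by -0.19 (SE 0.19) for TN-783 versus vehicle.

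Among stress axis genes 5 of 8 were tested and 0 were called in any comparison, with 1 lower gene at an unadjusted p under 0.05 in vehicle versus lean (5.55% of all genes), 1 in TN-783 versus lean (4.35%) and 0 in TN-783 versus vehicle (1.59%). Crh, the hypothalamic releasing hormone that drives the axis, averaged 7.67 ± 2.58 CPM in TN-783, 6.20 ± 0.872 in vehicle and 6.61 ± 4.84 in lean mice (SD, n = 6 each), and differed by 0.30 (SE 0.36, edgeR adjusted p = 1.00) for TN-783 versus vehicle. Avp, the vasopressin gene, averaged 32.4 ± 14.2, 38.9 ± 21.4 and 75.8 ± 51.7 CPM in the same groups, a vehicle-versus-lean difference of -0.94 (SE 0.44, edgeR adjusted p = 0.459). Crhbp, whose product binds the releasing hormone, differed by 0.74 (SE 0.36) for vehicle versus lean and by -0.26 (SE 0.35) for TN-783 versus vehicle.

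Genes that work with SGK1 or beside the other members showed no calls. Of 14 genes of the SGK family, its activators and substrates 10 were tested, with 6 higher and 4 lower in vehicle than lean mice, a median of 0.083 and 2 higher and 1 lower at an unadjusted p under 0.05 (5.32% and 5.55% of all genes). The FOXO genes, whose proteins SGK1 phosphorylates, differed by 0.34 (Foxo1, SE 0.12, edgeR adjusted p = 0.351) and 0.27 (Foxo3, SE 0.12, edgeR adjusted p = 0.432). In TN-783 versus vehicle 3 were higher and 7 lower, 0 at an unadjusted p under 0.05, with Foxo1 at -0.18 (SE 0.12) and the kinase gene Sgk3 at -0.26 (SE 0.21). The 9 regulators of mTORC1, all tested, had a median of 0.091 for vehicle versus lean and 0.00015 for TN-783 versus vehicle with 0 at an unadjusted p under 0.05 in either. Tsc2 (0.48, SE 0.25) and Mtor (0.20, SE 0.11) had the smallest p in the first, and Sesn2 (-0.35, SE 0.28) and Tsc1 (0.15, SE 0.14) in the second.

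Of 9 relatives in the TSC22 and KLF families 8 were tested, with 5 higher and 3 lower in vehicle than lean mice, a median of 0.16 and 3 higher and 1 lower at an unadjusted p under 0.05 (5.32% and 5.55% of all genes). Klf13 differed by 0.29 (SE 0.12, edgeR adjusted p = 0.394) and Klf2, an endothelial transcription factor gene, by 0.49 (SE 0.20, edgeR adjusted p = 0.394). In TN-783 versus vehicle 3 were higher and 5 lower with a median of -0.016, and Klf2 was at -0.36 (SE 0.20) and Tsc22d2 at -0.21 (SE 0.13).

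Markers of other cell types were summed per library, and for most the groups overlapped, none of the lists having a marker at 0 in a group. Blood markers (Hbb-bs, Hbb-bt, Hba-a1, Hba-a2 and Alas2, 5 of 5 detected in each group) summed to 1182 to 2144 CPM in TN-783, 320 to 2256 in vehicle and 357 to 707 in lean libraries. All 6 TN-783 libraries and 5 of 6 vehicle libraries were above every lean library in this sum, and vehicle replicate 5, at 320 CPM, was below them. Oligodendrocyte markers (6 of 6 detected) summed to 1419 to 2455, 1506 to 2526 and 1241 to 2191 CPM in TN-783, vehicle and lean libraries, and astrocyte markers (5 of 5) to 2971 to 3930, 2748 to 3619 and 2628 to 3235 CPM. Both of these lean ranges were topped by lean replicate 6, and the next lean libraries were at 1466 CPM for oligodendrocyte and 2769 CPM for astrocyte markers. Endothelial markers (6 of 6) summed to 174 to 258, 168 to 283 and 127 to 212 CPM, and fibroblast markers (4 of 4) to 26.4 to 44.3, 22.7 to 95.1 and 43.7 to 54.2 CPM, with the vehicle range at 22.7 to 44.1 CPM without replicates 2 and 4. Microglial (5 of 5), neuronal (5 of 5) and choroid plexus (5 of 5) sums overlapped between all groups. Without vehicle replicates 2 and 4 Sgk1 differed by 1.76 (SE 0.31) between vehicle and lean mice and by -0.35 (SE 0.29) between TN-783 and vehicle mice. The part of blood, oligodendrocyte, astrocyte, endothelial and fibroblast content in the levels of the 8 genes was not tested.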

How the data were processed

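Hypothalamus RNA of 18 mice was sequenced with a 3' mRNA kit with unique molecular identifiers (labels' protocols). Tools listed without roles, per the submitters' processing notes, are R 4.5.1, edgeR 4.6.2, Salmon 1.10.1 and STAR 2.7.9a, with build GRCm39. Identifier collapsing, strand setting and annotation are not given in the sources used here, so an overlapping gene on either strand could share reads. The authors deposited estimated counts (12.0% not whole), a scaling ratio per library and an integrity score per sample, and the authors' log2 CPM match the counts to within 8.88e-15.

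Estimated counts were rounded to whole numbers. Genes were kept by filterByExpr (minimum count 10), scaled by TMM and fitted over all 3 groups with edgeR 4.0.16 (R 4.3.3, robust quasi-likelihood, 15 residual degrees of freedom), with Benjamini-Hochberg adjustment over all 11835 genes at 0.05. CPM use these scaled sizes. The SE is the log2 difference over the square root of F, intervals are 95% from the moderated t distribution, and log2 CPM used a prior count of 2. The test was tried on simulated data. The members and lists were chosen with earlier results of these data known. Named are the 8 genes, of each list the called genes or else the 2 smallest p in vehicle versus lean and in TN-783 versus vehicle, and the 5 genes most like Sgk1, of which 1 is not reported here. Acnat2, Gm35041 and the remarks on single libraries came after values were seen. Tsc22d4 was in a list and is not analysed here. Promoter windows are RefSeq's on GRCm38.p6, another build than the counts. Alternatives were DESeq2 1.42.0, RLE scaling, other filters, 2 groups alone, a replicate block, RNA integrity, limma 3.58.1 voom, no vehicle replicates 2 and 4, leaving out each library and, for relations, a prior count of 0.5.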

Additional observations from a re-analysis of the deposited data

Results flagged for a closer look

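A single sample stood far from the other 5 of its group in 5 of the 54 groups of values that were examined, and chance alone flags about 1 in 20 groups. Vehicle replicate 6 had 113.0 CPM of Sgk1, where the next vehicle library had 87.7. The summed hypothalamic markers of TN-783 replicate 1 were 249 CPM, where the next TN-783 library had 393. Choroid plexus markers summed to 81.9 CPM in vehicle replicate 5, where the next vehicle library had 52.5. Lean replicate 6 had 2191 CPM of oligodendrocyte markers and 3235 CPM of astrocyte markers, where the next lean libraries had 1466 and 2769 CPM.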

How the results depend on the processing

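Of 862 alternative values, 815 kept their direction and side of the threshold or moved by less than the replicate spread. Under all 27 alternatives Sgk1 stayed between 1.60 and 2.08 for vehicle versus lean, between 1.25 and 1.73 for TN-783 versus lean and, never called, between -0.45 and -0.23 for TN-783 versus vehicle. Within-group relations of Sgk1 kept their call under a prior count of 0.5 and without each library.

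The number of called genes was unstable. For TN-783 versus vehicle it was 6 with no filter and 0 otherwise. For vehicle versus lean (1 gene) it was 22 with DESeq2, 126 with no filter, 146 with limma voom, and 0 with at least 1 CPM in 6 libraries, with the 2 groups alone and without vehicle replicates 2 and 4. With 1 library left out it ranged from 0 to 346: leaving out lean replicate 6 gave 346, lean replicate 5 gave 3, vehicle replicate 5 gave 6, and vehicle replicate 3 or lean replicate 4 gave 2, while there were 0 without vehicle replicate 1, 2, 4 or 6, lean replicate 2 or 3 or TN-783 replicate 5 or 6. For TN-783 versus lean (0 genes) it was 10 with DESeq2, 27 with no filter, 5 with the 2 groups alone, 2 with RNA integrity, 4 with limma voom, and 0 to 5 with 1 library left out (5 without vehicle replicate 5, 1 without TN-783 replicate 3 or lean replicate 5). The cause was not tested.

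Same-numbered libraries deviated together with r over 0.1 in 0, 3 and 0 of 6 pairs (r from -0.29 to -0.041, from -0.13 to 0.38 and from -0.40 to 0.092 for TN-783 versus vehicle, vehicle versus lean and TN-783 versus lean), short of every pair, so the numbers were not taken to pair samples. In vehicle versus lean 2 of 6 libraries correlated best with their own number. With the replicate block 0, 1 and 1 genes were called in these comparisons.

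Members near 0 in TN-783 versus vehicle changed sign, none being called: Tsc22d3 to 0.044 and Klf9 to 0.028 with RNA integrity, Klf9 to 0.015 with no filter, Zbtb16 to -0.0049 with RNA integrity and Ddit4 to 0.0055 without vehicle replicates 2 and 4. With 1 library left out Tsc22d3 ranged from -0.11 to 0.0089, Klf9 from -0.074 to 0.045, Ddit4 from -0.16 to 0.024 and Zbtb16 from -0.16 to 0.14. Intervals use 1 spread per gene, shared by the 3 groups of 6 animals, so those of TN-783 versus vehicle include the lean spread.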
